A study of Mus musculus with 12 samples.

Results

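The comparison described here sets hippocampal RNA of control mice given delta-9-tetrahydrocannabinol (THC) against that of control mice given vehicle, with 3 libraries on each side. These 6 libraries belong to a series of 12, all on a C57BL/6 background. The other 6 come from aDN-DISC1 mice, again 3 with vehicle and 3 with THC. The members were chosen by the treatment in the library titles, and all 15802 genes that passed a filter on low counts were tested.

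The control libraries are called control vehicle 1 to 3 and control THC 1 to 3, the numbers being names only. They carry no genotype entry and were placed by title, and the labels do not say whether control mice carry a transgene. The aDN-DISC1 mice are labelled DISC1 mutant. By the title of the series, the vulnerability studied is specific to astrocytes, with THC in adolescence and memory tested in adulthood. The labels give no dose, interval, age, sex, litter or batch, so nothing could be paired. Control vehicle libraries hold the library numbers 6, 7 and 11 and control THC libraries 1, 2 and 4, so library order and treatment cannot be told apart. Nothing says that the 3 libraries of a group are separate animals, so p-values may rest on technical spread, and in bulk tissue fewer cells of a type and less RNA per cell cannot be told apart.

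THC is the main psychoactive compound of cannabis and a partial agonist of the CB1 receptor. CB1 couples to inhibitory G proteins and is dense on hippocampal axon terminals, where endocannabinoids released by the postsynaptic cell dampen transmitter release, and astrocytes carry it too. Cannabinoids also act on the stress axis, whose corticosteroid hormones reach the hippocampus through the glucocorticoid receptor, a transcription factor that binds paired short sites in DNA.

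Total expected counts were 37450401 to 39113364 in the vehicle libraries and 35779460 to 41389957 in the THC libraries, so that 1 CPM (a count scaled by TMM to a library of 1000000) stands for about 36 to 41 counts. Markers of dentate, CA3 and CA1 neurons, which define the hippocampus, were present in all 6 libraries. The THC libraries stood apart from each other. Control THC 2 held the first principal component of the 6 libraries (36.2% of the variance, score 45.38 against -16.12 to -0.22 elsewhere) and carried choroid plexus RNA: Ttr, the transthyretin gene, was at 5090 CPM there and at 20.1 to 84.4 CPM in the other 5. Control THC 3 held the second component (26.1%, score -36.31 against -3.95 to 16.53) and had more RNA of dentate and CA3 neuron genes and less of CA1 genes. Where the count of a gene list moved by over 1.5 times without one of them, the count without it is given for many lists but not for all.

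THC in control mice left no gene past the threshold of the edgeR quasi-likelihood test (adjusted p under 0.05, Benjamini-Hochberg over 15802 genes, 0% called). At an unadjusted p under 0.05 there were 561 genes at higher levels after THC (3.55% of those tested) and 545 at lower levels (3.45%). limma-voom also called 0, and DESeq2 called 12 of 14912 genes (0.0805%). In 1311 genes (8.3%) all THC libraries lay above all vehicle libraries, and in 1275 (8.07%) all lay below. Counts for the gene lists below are to be read beside these shares over all genes. The median log2 fold change of all genes was 0.0004, and among the 13956 genes at 1 CPM or more 387 were higher and 182 lower by more than 0.5 on the log2 scale. The smallest adjusted p of any gene was 0.55, so every difference below is a value with its error that did not pass over all genes.

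Ddit4 had the smallest p of the genes at higher levels (chr10:59949675-59951770, GRCm38.p6). It encodes REDD1, a stress-induced inhibitor of mTOR signalling. Ddit4 was at 42.6, 34.5 and 35.2 CPM in the vehicle libraries, in their order, and at 56.05, 52.6 and 57.1 CPM in the THC libraries. All THC libraries lay above all vehicle libraries and close to each other. The mean of 3 libraries with its SD was 37.4 ± 4.49 CPM for vehicle and 55.3 ± 2.33 CPM for THC, a log2 fold change of 0.56 ± 0.08 (SE, edgeR adjusted p = 0.55), and it lay between 0.51 and 0.67 when any 1 control library was left out.

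Acsf2, an acyl-CoA synthetase gene of mitochondria, was nearly constant in vehicle at 6.11, 6.12 and 6.07 CPM and was at 7.94, 9.20 and 9.98 CPM in THC (log2 fold change 0.57 ± 0.10). Among the zinc finger transcription factor genes, Zfp568 was at 6.56, 6.45 and 5.74 CPM in vehicle and 8.25, 8.79 and 8.69 in THC (0.46 ± 0.09). Zfp212 was at 12.3, 10.8 and 13.03 CPM against 15.5, 15.4 and 16.2 (0.38 ± 0.08). In these genes too the groups did not overlap, which the choice by p largely fixes. Dnaja4, a co-chaperone gene, Tex261 and Sec24d, whose products serve vesicle traffic from the endoplasmic reticulum, were higher by 0.24 ± 0.05, 0.26 ± 0.06 and 0.33 ± 0.08. Cp, the ferroxidase ceruloplasmin made by astrocytes, was at 23.5, 18.9 and 19.3 CPM in vehicle and 27.9, 31.2 and 30.5 in THC (0.54 ± 0.12).

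Vwf, the von Willebrand factor gene of endothelial cells, was at 16.5, 19.8 and 14.9 CPM in vehicle and at 28.2, 30.8 and 33.6 CPM in THC (0.85 ± 0.19). Tns2, which encodes the adhesion adaptor tensin 2, was at 6.87, 7.68 and 6.98 CPM against 10.6, 10.8 and 11.8 (0.62 ± 0.13). Klf2, a transcription factor of endothelium under flow and an immediate early gene, was at 3.29, 2.71 and 3.28 CPM against 13.04, 5.28 and 5.86 (1.38 ± 0.30). Control THC 1 was far above the others in Klf2, and without it the log2 fold change was 0.84. The noncoding row NR_002860, which has no symbol in the tables used, was at 15.8, 16.7 and 18.3 CPM against 55.1, 22.8 and 49.0 (1.32 ± 0.30).

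Tubb4a had the smallest p of the genes at lower levels (chr17:57080061-57087600). It encodes a beta tubulin of axons and oligodendrocytes. Tubb4a was at 172, 179 and 176 CPM in vehicle and at 143, 138 and 140 CPM in THC, with both groups within a few CPM of their means. The means were 175 ± 3.54 and 140 ± 2.13 CPM (SD, n = 3), a log2 fold change of -0.32 ± 0.05 (edgeR adjusted p = 0.69), and -0.34 to -0.31 with any 1 control library left out.

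Of the other lower genes 3 encode mitochondrial proteins. Ogdhl, a subunit of a 2-oxoglutarate dehydrogenase-like complex, was at 126, 137 and 121 CPM in vehicle and 105, 102 and 86.5 in THC (-0.39 ± 0.09). Sfxn5, a mitochondrial carrier gene of the sideroflexin family, was at 323, 299 and 281 CPM against 256, 251.15 and 239 (-0.27 ± 0.07). Mrpl12, a mitochondrial ribosomal protein gene, was at 49.6, 49.6 and 43.8 CPM against 33.5, 32.8 and 33.7 (-0.52 ± 0.13). Across the 82 nuclear-encoded respiratory chain genes tested, the median was -0.04, with 2 higher and 1 lower at an unadjusted p under 0.05, and 0 or 1 higher and 1 to 4 lower with any 1 control library left out.

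Nova1, an RNA-binding splicing factor of neurons, was at 31.7, 32.7 and 37.2 CPM in vehicle and 28.6, 22.9 and 23.4 in THC (-0.44 ± 0.10). Fhod3, a formin that assembles actin, was at 27.0, 22.4 and 27.3 CPM against 17.4, 17.7 and 16.9 (-0.56 ± 0.14). Plau, the urokinase gene, was at 4.69, 5.02 and 4.55 CPM against 2.81, 3.48 and 2.24 (-0.74 ± 0.18). Also lower were Bfsp2 (-0.53 ± 0.13), Pitpnm3 (-0.39 ± 0.10), Fsd1 (-0.28 ± 0.06) and the inositol pyrophosphate kinase gene Ppip5k1 (-0.27 ± 0.07).

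**Figure D1:**
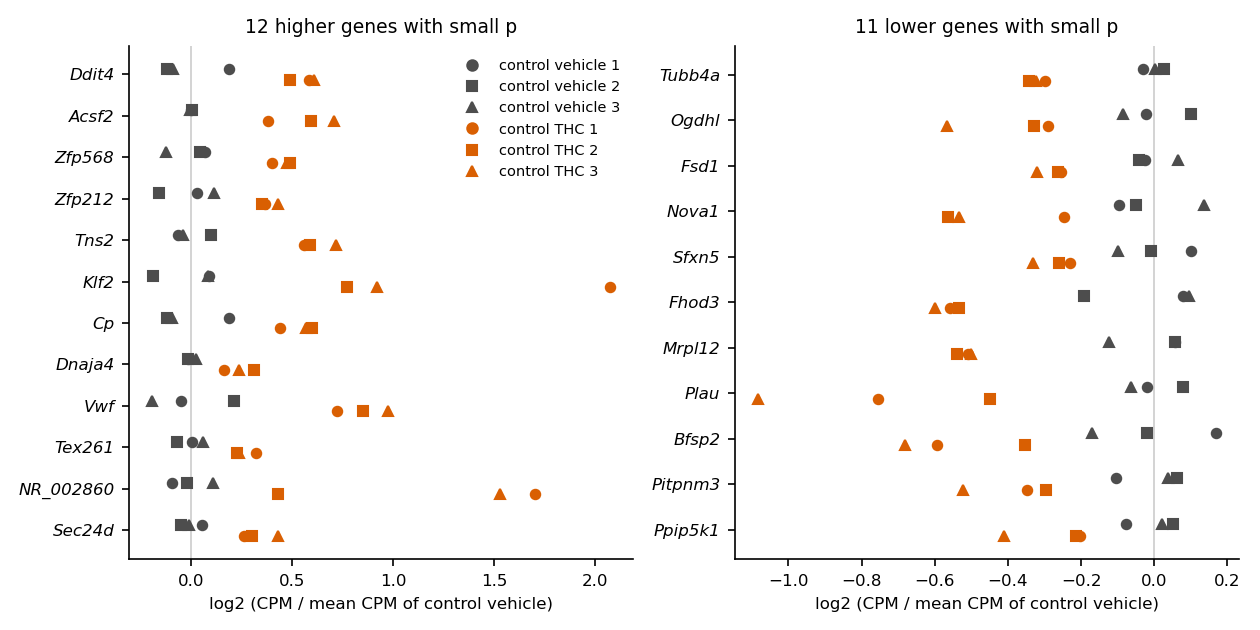
Level of each gene in each control library, as log2 of its CPM over the mean of the 3 control vehicle libraries, for the 12 higher genes and 11 of the 12 lower genes with the smallest p at 1 CPM or more. Grey symbols are vehicle and orange symbols THC libraries. The groups do not overlap in any of the 23, a feature of the choice, and Klf2 in control THC 1 (13.04 CPM) lies farthest from its group.

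All 12 genes that DESeq2 called are among the 24 with the smallest p. Of the higher genes they were Ddit4 (DESeq2 adjusted p = 2.4e-05), Acsf2, NR_002860, Klf2, Vwf, Tns2, Zfp568, Cp and Zfp212, and of the lower genes Tubb4a (1.6e-06), Sfxn5 and Ogdhl (0.049). Their adjusted p by edgeR was 0.55 to 0.70 in the same libraries.

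Glucocorticoid-induced genes were mostly higher after THC. Of 27 listed genes, all tested, 24 had a log2 fold change above 0, 9 were higher at an unadjusted p under 0.05 and 0 lower, where 3.55% and 3.45% of all genes were. The median was 0.23, beside 0.0004 for all genes, and 0.18 to 0.27 with any 1 control library left out, when 6 to 9 genes were under that p. In 9 genes all THC libraries lay above all vehicle libraries, and in 1, Mertk, all lay below, beside 8.3% and 8.07% of all genes. The mean log2 level of the list, set against vehicle, was 0.34, 0.18 and 0.18 in control THC 1 to 3. It was 0.04, -0.02 and -0.02 in the vehicle libraries, so every THC library lay above every vehicle library. By this measure the same held for other lists below: FoxO and mTOR, prostaglandin, reactive astrocyte, complement, MHC, endothelial, meningeal and Zfp genes. In the glutamate receptor, presynaptic, resting astrocyte and DISC1 lists every THC library lay below every vehicle library.

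The sequence before the start of Sgk1 and of Nfkbia, both members with small p and a match to a known type of site, is shown as 250 bases before to 50 after a RefSeq start in GRCm38.p6. The letters GNACANNNTGTNC, paired short sites of the kind the glucocorticoid receptor binds, and the kB consensus, the kind that NF-kB binds, were searched on both strands. Capitals mark the match. The Sgk1 window is chr10:21993640-21993939, plus strand, the fifth of 6 listed starts of the gene, and the Nfkbia window is chr12:55492598-55492897, minus strand.
Sgk1: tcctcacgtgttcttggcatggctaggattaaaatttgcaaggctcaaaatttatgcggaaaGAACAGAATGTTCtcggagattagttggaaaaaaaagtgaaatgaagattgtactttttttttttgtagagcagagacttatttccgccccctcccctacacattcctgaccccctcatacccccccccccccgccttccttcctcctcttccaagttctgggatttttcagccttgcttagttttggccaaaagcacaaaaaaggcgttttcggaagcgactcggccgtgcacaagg
Nfkbia: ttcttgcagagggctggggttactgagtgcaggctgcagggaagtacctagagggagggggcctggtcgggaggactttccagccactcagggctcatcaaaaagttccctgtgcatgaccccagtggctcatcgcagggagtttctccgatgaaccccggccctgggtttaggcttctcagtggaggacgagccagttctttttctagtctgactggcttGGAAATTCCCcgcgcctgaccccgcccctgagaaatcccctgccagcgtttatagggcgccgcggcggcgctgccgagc
The receptor-type letters were found in 3 of the 24 listed genes with a window, Sgk1 (GAACAGAATGTTC), Mt1 (GGACATGATGTTC) and Map3k6 (GCACAGGCTGTTC), and in 0.537% of all 27025 genes with a window. The kB consensus, a looser pattern, was found in 3 of the 24, Nfkbia (GGAAATTCCC), Tsc22d3 and Plin4, and in 9.55% of all genes with a window. A match says only that these letters stand there.

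Sgk1, a kinase that regulates ion channels and is induced by glucocorticoids, was at 98.7, 90.0 and 81.9 CPM in vehicle and at 191, 177 and 146 CPM in THC. Each THC library lay well above each vehicle library. The log2 fold change was 0.92 ± 0.24 (adjusted p = 0.70), from 0.83 to 1.02 with any 1 control library left out. Fkbp5, the co-chaperone that lowers the receptor's affinity for hormone, was at 50.3, 48.7 and 54.95 CPM against 72.9, 61.7 and 75.1 (0.45 ± 0.12). Nfkbia, which encodes the NF-kB inhibitor IkBa and is also a target of NF-kB, was at 32.8, 27.2 and 28.3 CPM against 41.7, 37.3 and 37.2 (0.40 ± 0.11).

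The other members under an unadjusted p of 0.05 were Sult1a1 (0.78 ± 0.23), Errfi1 (0.23 ± 0.07), the metallothioneins Mt1 (0.23 ± 0.09) and Mt2 (0.33 ± 0.12), and the lipid droplet gene Plin4 (0.82 ± 0.34), chosen here after their values were seen. Other well-known targets of the receptor had log2 fold changes of -0.11 to 0.09. Tsc22d3, which encodes the mediator GILZ, was at 106, 90.3 and 99.3 CPM in vehicle and 121, 94.2 and 89.0 in THC (0.04 ± 0.14). The clock gene Per1 was at 0.09 ± 0.08, Zbtb16 at -0.11 ± 0.23 and Map3k6 at -0.04 ± 0.19. Of the 12 tested genes for corticosteroid receptors, chaperones and hormone-converting enzymes, 0 were higher and 2 lower at that p: Crh, the corticotropin-releasing hormone gene, at 1.26, 1.56 and 1.47 CPM against 1.25, 0.793 and 0.813 (-0.59 ± 0.26), and its receptor Crhr1 (-0.40 ± 0.16). That count was 0 when control vehicle 2, control vehicle 3, control THC 2 or control THC 3 was left out, and 4 without control THC 1. Nr3c1, the glucocorticoid receptor gene itself, was at -0.10 ± 0.07.

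**Figure D2:**
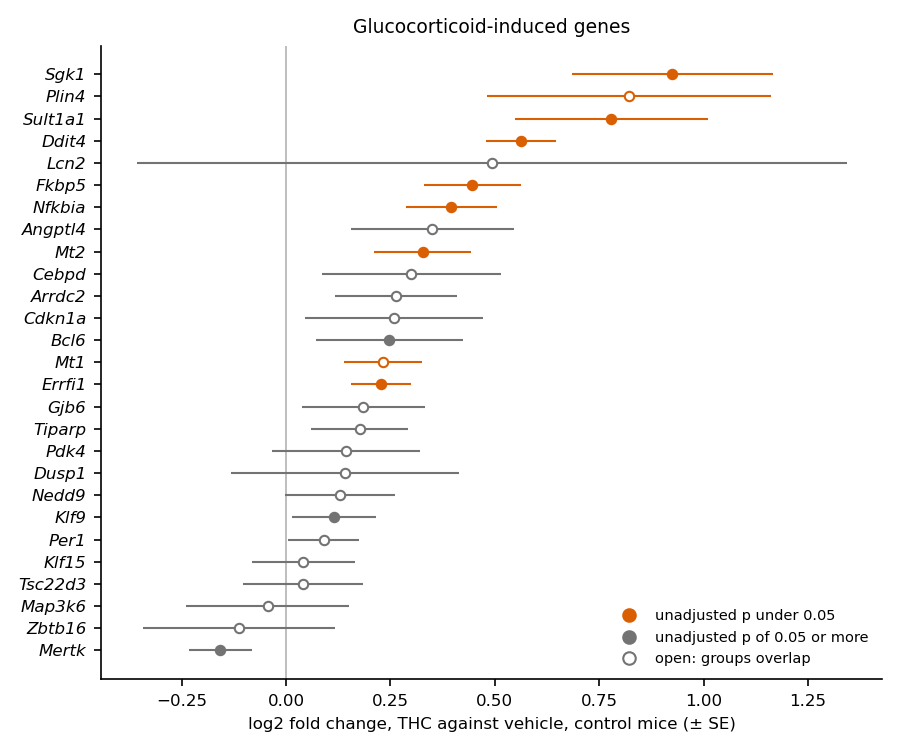
Log2 fold change by THC in control mice with its standard error for the 27 glucocorticoid-induced genes. Orange marks an unadjusted p under 0.05 and open symbols mark overlapping groups. Sgk1 (0.92) is highest, 24 of 27 lie above 0, and none passed over all genes tested.

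Among 20 mTOR inhibitors and FoxO targets the median was 0.04 (0.03 to 0.07 with any 1 control library left out), and 3 were higher and 0 lower at an unadjusted p under 0.05: Ddit4, Txnip and Eif4ebp2. Txnip, a thioredoxin inhibitor that restrains glucose uptake, was at 48.4, 36.8 and 39.1 CPM in vehicle and 49.9, 64.0 and 64.4 in THC (0.52 ± 0.13). Eif4ebp2, the brain's main repressor of cap-dependent translation, was at 4.74, 5.37 and 5.79 CPM against 6.27, 7.28 and 7.65 (0.41 ± 0.13). Ddit4l, the paralogue of Ddit4, had overlapping groups and a log2 fold change of -0.52 ± 0.29.

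Immediate early genes split in direction. Of 38 tested, 3 were higher and 6 lower at an unadjusted p under 0.05, and the median was -0.00. Those lower were Npas4, Fos, Arc, Ier5, Junb and Nr4a2. Those higher were Klf2, Klf4 and Atf3. Arc, Ier5, Junb, Nr4a2 and Klf4 are named after their values were seen.

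Npas4, a transcription factor induced by calcium entry in active neurons, was at 7.56, 10.3 and 9.62 CPM in vehicle and 4.91, 6.37 and 5.72 in THC (-0.69 ± 0.20). Fos was at 21.4, 20.6 and 23.6 CPM against 15.9, 14.9 and 12.6 (-0.60 ± 0.18). Arc, whose product regulates AMPA receptor uptake at synapses, was at 186, 187 and 183 CPM against 134, 169 and 141 (-0.32 ± 0.13). In these genes every THC library lay below every vehicle library.

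Egr1 lay below vehicle too, at 29.9, 29.9 and 45.8 CPM against 26.7, 23.6 and 25.3 (-0.48 ± 0.25). Egr3 (0.01 ± 0.16), Nr4a1 (-0.12 ± 0.22) and Bdnf (0.22 ± 0.23), also induced by neuronal activity, had overlapping groups. Klf4 was at 2.47, 2.90 and 3.28 CPM in vehicle and 10.8, 4.16 and 4.46 in THC (1.17 ± 0.35). Atf3, a stress-induced factor, was at 1.76, 1.42 and 1.32 CPM against 5.02, 1.83 and 2.80 (1.09 ± 0.33). Control THC 1 was the highest in both, as in Klf2. Without any 1 control library, 3 to 5 members were higher and 2 to 7 lower. Those lower were 2 without control THC 3, 3 without control vehicle 1 or control vehicle 3, and 7 without control THC 1, and those higher were 5 without control THC 3.

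Endothelial genes were higher in part. Of 24 tested, 6 were higher and 1 lower at an unadjusted p under 0.05, where 3.55% and 3.45% of all genes were. Wholly above vehicle lay 8 and wholly below 1, beside 8.3% and 8.07% of all genes, and the median was 0.14. Cdh5, the VE-cadherin gene of endothelial junctions, was at 7.06, 8.25 and 8.84 CPM in vehicle and 10.6, 10.04 and 12.4 in THC (0.45 ± 0.14). Tek, the angiopoietin receptor gene, was at 17.0, 16.2 and 16.8 CPM against 19.6, 21.1 and 19.0 (0.26 ± 0.09). The tight junction gene Ocln was at 23.3, 21.6 and 23.3 CPM against 26.1, 32.0 and 31.5 (0.39 ± 0.15). Cldn5, the claudin of the blood-brain barrier and named after its value was seen, was the lower one (-0.22 ± 0.10). Leaving out control vehicle 2 or control THC 2 left 3 higher genes, and leaving out any library but control vehicle 1 left 0 lower ones.

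Meningeal fibroblast and matrix genes had the second highest median of the 45 lists, after choroid plexus genes. Of 24 tested, 23 were above 0, and 8 were higher and 0 lower at an unadjusted p under 0.05. Wholly above vehicle lay 12 and wholly below 0, beside 8.3% and 8.07% of all genes. Their median was 0.68. Without control THC 2, a fit in which 2.83% of all genes were higher and 2.91% lower at that p, it was 0.78, with 10 such genes, and without control THC 1 it was 0.47. With any other control library left out 2 to 5 genes were higher, 2 of them without control vehicle 2 or control THC 3. The summed level of the list was 354 to 431 CPM in vehicle and 520 to 550 CPM in THC, and none of its members was at 0 in all libraries. Slc13a4, a sulfate transporter gene of the meninges and choroid plexus, was at 13.6, 12.2 and 11.7 CPM in vehicle and 30.3, 48.1 and 23.5 in THC (1.44 ± 0.50). Foxc1, a transcription factor of meningeal development, was at 5.32, 5.91 and 5.35 CPM against 9.50, 6.58 and 11.5 (0.73 ± 0.26). Slc6a20a, a proline transporter gene, was at 21.3, 17.3 and 15.5 CPM against 30.7, 25.1 and 31.2, and Col1a2 at 30.8, 29.5 and 26.5 against 44.1, 44.9 and 52.1.

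Blood cell genes were higher as well. All 13 tested were above 0, 3 were higher and 0 lower at that p, and the median was 0.45. Without control THC 2 the median was 0.67 with 6 such genes, and without control THC 3 it was 0.34 with 2. Leaving out control vehicle 3 or control THC 1 also left 2. Hba-a1, a haemoglobin gene with a near-identical copy between which reads are shared, was at 81.4, 77.4 and 76.2 CPM in vehicle and 111, 100.45 and 110.1 in THC. Alas2, which makes haem in red cells, was at 6.74, 6.39 and 6.02 CPM against 10.5, 7.42 and 10.7. Summed blood RNA was 661 to 774 CPM in vehicle and 717 to 972 CPM in THC. The part of these meningeal and blood genes in the vascular, complement, reactive astrocyte and glucocorticoid results was not tested.

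Complement and antigen presentation genes were higher in part. Of 23 complement components and regulators 7 were higher and 1 lower at an unadjusted p under 0.05. Their median was 0.11, but 0.01 to 0.16 with any 1 control library left out, lowest without control vehicle 3, and 0.03 with Ttr as a covariate. Serping1, the C1 inhibitor gene, was at 6.58, 6.53 and 6.25 CPM in vehicle and 9.002, 10.8 and 12.4 in THC (0.74 ± 0.19). C1ra, a protease gene of the classical pathway, was at 1.63, 1.75 and 1.45 CPM against 1.78, 3.05 and 2.41 (0.59 ± 0.21). C1rl, at 10 to 14 counts in vehicle and 18 to 34 in THC, was higher by 0.95 ± 0.27. Leaving out control THC 2 gave 4 higher genes and control vehicle 3 gave 3, and 0 were lower without control vehicle 2, control vehicle 3, control THC 1 or control THC 2.

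Of 19 MHC genes 17 were above 0, 4 were higher at that p and the median was 0.16, but leaving out control THC 2 left 0 such genes and control vehicle 2 or 3 left 1. Cd74, the invariant chain of class II, was at 2.24, 1.56 and 1.99 CPM in vehicle and 3.51, 4.37 and 2.52 in THC. H2-Aa was at 1.16, 0.940 and 1.09 CPM against 1.31, 2.69 and 1.54. In both, control THC 2 was highest.

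Lists of reactive and resting astrocyte genes differed in direction. Of 33 genes of reactive astrocytes 8 were higher and 1 lower at an unadjusted p under 0.05, with a median of 0.25 (0.17 to 0.27 with any 1 control library left out, lowest without control THC 3). Leaving out control vehicle 2 gave 5 higher and 2 lower. The higher genes include Cp, Serping1 and Fkbp5, given above, and Steap4, at 8 to 10 counts in vehicle and 19, 100 and 19 counts in THC. Fkbp5 is also in the glucocorticoid-induced list and Serping1 in the complement list. Bulk RNA does not show which cells these transcripts came from. Gfap, the filament protein most used as a marker of reactive astrocytes, was at 471, 443 and 414 CPM in vehicle and 384, 377 and 411 in THC, with a log2 fold change of -0.18 ± 0.15 that did not reach an unadjusted p of 0.05 by edgeR. Of 20 markers of resting astrocytes 0 were higher and 4 lower, with a median of -0.10. Fgfr3 was at 140, 123 and 117 CPM against 103, 103 and 94.5 (-0.34 ± 0.11), and the water channel gene Aqp4 at 305, 260 and 293 against 226, 239 and 260 (-0.24 ± 0.11). The potassium channel gene Kcnj10 was lower by -0.30 ± 0.13 and Mlc1 by -0.18 ± 0.07. The 4 became 1 without control THC 1, and 2 when control vehicle 1, control vehicle 2 or control THC 2 was left out. The 21 microglia markers tested had 0 genes in either direction and a median of -0.05.

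Oligodendrocyte and myelin genes were mostly lower, but not in control THC 2. Of 24 tested, 22 were below 0 but 1 was under an unadjusted p of 0.05. The list's mean log2 level against vehicle was -0.25, 0.17 and -0.44 in control THC 1 to 3 and 0.07, 0.12 and -0.19 in the vehicle libraries, so the groups overlapped. Without control THC 2 the median moved from -0.21 to -0.36 and 8 genes were lower, and 4 were without control vehicle 3, while without control THC 3 it was -0.12 and 0 were. Leaving out control vehicle 1, control vehicle 2 or control THC 1 also left 0. Mbp (myelin basic protein) was at 2688, 2795 and 2089.5 CPM in vehicle and 1989, 2407 and 1509.7 in THC. Enpp2, which choroid plexus also expresses, was at 3124 CPM in control THC 2 and 220 to 284 CPM in the other 5.

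Of 17 genes of oligodendrocyte precursors 15 were below 0, 3 of them lower at that p, and the median was -0.18 (-0.24 to -0.11 with any 1 control library left out). Gpr17, a receptor of cells committed to become oligodendrocytes, was at 69.2, 70.6 and 67.8 CPM in vehicle and 53.1, 64.8 and 52.1 in THC (-0.29 ± 0.09). Vcan was at 42.3, 45.4 and 38.4 CPM against 36.5, 34.9 and 37.2 (-0.22 ± 0.07), and Neu4 was at -0.23 ± 0.09. Leaving out control THC 2 gave 5 lower genes, and control vehicle 2 gave 1.

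**Figure D3:**
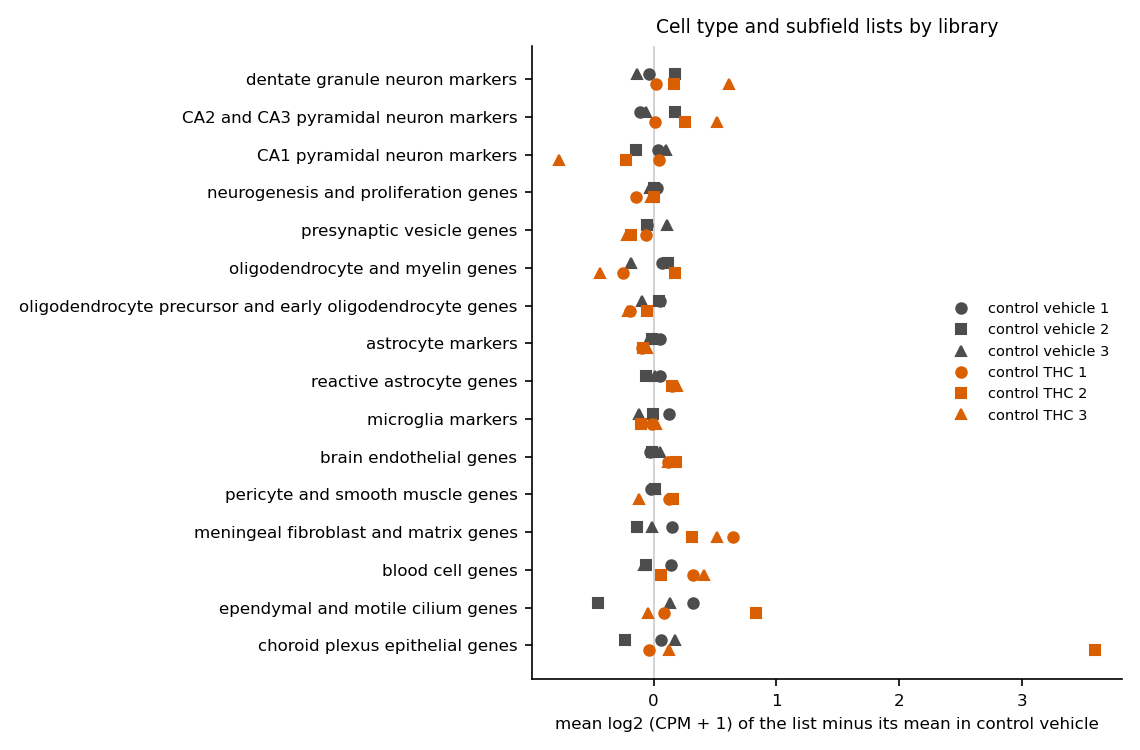
Mean log2(CPM + 1) of each cell type or subfield list in each control library, minus its mean in the vehicle libraries. Meningeal genes lie above vehicle in all 3 THC libraries, choroid plexus genes in control THC 2 alone (3.60), and dentate (0.61) and CA1 (-0.77) markers stand apart in control THC 3.

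Markers of hippocampal subfields stood apart in control THC 3. The dentate granule list was 0.02, 0.17 and 0.61 above vehicle in control THC 1 to 3, and the CA1 list 0.04, -0.23 and -0.77. Dentate genes had a median of 0.34 in all libraries and 0.06 without control THC 3, CA2 and CA3 genes 0.28 and 0.11, and CA1 genes -0.20 and -0.04. Stxbp6 of the dentate list was at 95.2, 104 and 93.4 CPM in vehicle and 121, 113 and 184 in THC.

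Genes of synaptic transmission were lower in part. Of 23 presynaptic vesicle genes 2 lay wholly above vehicle and 6 wholly below, beside 8.3% and 8.07% of all genes. Of 34 glutamate receptor and scaffold genes these were 1 and 7. At an unadjusted p under 0.05, 1 presynaptic vesicle gene was higher and 3 lower, where 3.55% and 3.45% of all genes were. The presynaptic median was -0.13, and -0.02 without control vehicle 3. Sv2a, a vesicle glycoprotein gene, was at 370, 385 and 384 CPM in vehicle and 343, 331 and 291 in THC (-0.24 ± 0.08). The fusion gene Stx1a (-0.33 ± 0.13) was lower too, and Cplx2, a complexin gene, was higher at 897, 970 and 979 CPM against 1072, 1042 and 1182 (0.21 ± 0.09). The 3 became 7 without control THC 1, and 1 when control THC 2 or control vehicle 3 was left out, and 0 were higher unless the library left out was control THC 2. Of 34 glutamate receptor and scaffold genes 0 were higher and 2 lower, near the share among all genes. Their median was -0.07, with -0.12 to -0.02 when any 1 control library was left out and 0.004 with Ttr as a covariate. The 2 became 4 without control THC 1, and 1 without control vehicle 1 or control THC 3. Gria4, an AMPA receptor subunit gene, was at 95.02, 83.5 and 98.3 CPM against 80.1, 68.0 and 61.6 (-0.40 ± 0.11), and the NMDA receptor subunit gene Grin2c was at -0.21 ± 0.09.

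Some neurogenesis and tubulin genes were lower. Of 23 neurogenesis and proliferation genes 10 were above 0 and 13 below. At an unadjusted p under 0.05, 1 was higher and 4 lower, and the median was -0.04 (-0.08 to 0.0006 with any 1 control library left out). In those fits 3 or 4 were lower, and 0 were higher without control vehicle 2, control THC 1 or control THC 3. Stmn1, the microtubule regulator stathmin, was at 300, 266 and 289 CPM in vehicle and 230, 213 and 184 in THC (-0.45 ± 0.13). Nes, the nestin gene of progenitors and vessels, was the higher one, at 13.8, 11.5 and 14.1 CPM against 16.4, 15.01 and 16.01 (0.26 ± 0.10). Of 12 alpha and beta tubulin genes 0 were higher and 3 lower, with a median of -0.10. Beside Tubb4a they were Tubb3 of neurons, at 314, 270 and 305 CPM against 269, 233 and 189 (-0.36 ± 0.12), and Tuba1a (-0.14 ± 0.06).

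The genes of the study's question, NF-kB and COX-2 signalling, were mostly near their vehicle level. Cnr1, the CB1 receptor gene, was at 336, 313 and 355 CPM in vehicle and 337, 322 and 306 in THC (-0.06 ± 0.22). Of 17 endocannabinoid receptor and enzyme genes 0 were higher and 1 lower at an unadjusted p under 0.05, with a median of -0.00. That gene was Abhd6, a hydrolase of the endocannabinoid 2-AG, at 54.3, 58.3 and 54.5 CPM against 47.6, 46.8 and 46.96 (-0.24 ± 0.11). The count was 0 when any control library but control THC 1 was left out. Napepld, which makes anandamide, was at 31.9, 36.9 and 33.9 CPM against 39.7, 38.9 and 54.8 (0.38 ± 0.19).

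The COX-2 gene Ptgs2 was at 26.4, 33.4 and 32.9 CPM in vehicle and 28.4, 32.3 and 42.0 in THC, and the groups overlapped (0.15 ± 0.25). Of 27 prostaglandin and leukotriene genes 2 were higher and 0 lower at that p, with a median of 0.03. The 2 became 0 when control vehicle 1, control vehicle 3, control THC 1 or control THC 3 was left out, and 1 without control vehicle 2. They were the prostaglandin transporter gene Slco2a1, at 1.47, 1.69 and 1.89 CPM against 2.59, 2.76 and 3.11 (0.74 ± 0.33), and Pla2g4e (0.40 ± 0.18). Ptgds, the prostaglandin D synthase gene abundant in meninges, was at 480, 361 and 349 CPM against 918, 431 and 571 (0.69 ± 0.43). It is named after its values were seen. The mean log2 level of the list, set against vehicle, was 0.14, 0.06 and 0.05 in control THC 1 to 3. In the vehicle libraries it was 0.03, -0.03 and 0.01, so the groups did not overlap.

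Of 22 NF-kB subunit, inhibitor and target genes 1, Nfkbia, was higher and 0 lower, with a median of 0.05 (-0.01 to 0.09 with any 1 control library left out). The count was 2 without control vehicle 1. Nfkb1, the p50 precursor gene, was at 25.3, 23.2 and 22.8 CPM against 24.97, 25.7 and 25.8 (0.10 ± 0.06), and Rela, the p65 gene, at 13.01, 13.3 and 13.7 against 12.4, 13.6 and 13.01 (-0.04 ± 0.07). Il1b, an inflammatory target, was at 8 to 18 counts in vehicle and 6 to 12 in THC.

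Disc1 was at 1.79, 2.58 and 2.40 CPM in vehicle and 2.42, 2.45 and 2.58 in THC (0.14 ± 0.24). Of 18 genes of DISC1 and its scaffold partners 0 were higher and 2 lower, with a median of -0.07. The 2 became 0 without control vehicle 1, control THC 2 or control THC 3, and 4 without control THC 1. The list's mean log2 level against vehicle was -0.06, -0.13 and -0.12 in control THC 1 to 3. In the vehicle libraries it was -0.02, -0.02 and 0.04, so the groups did not overlap. Pde4d, a cyclic AMP phosphodiesterase gene, was lower by -0.22 ± 0.10 and Atf4 by -0.17 ± 0.07. Srr, the serine racemase gene that makes D-serine, was at 86.8, 91.5 and 95.3 CPM against 95.5, 89.3 and 103 (0.07 ± 0.07). Of 16 genes of D-serine, glycine and serine handling 2 were higher and 1 lower, with a median of -0.09 (-0.14 to -0.03 with any 1 control library left out). Without control THC 3, 0 were lower. Shmt1, which interconverts serine and glycine, was at 3.53, 3.09 and 3.00 CPM against 3.90, 4.32 and 4.93 (0.45 ± 0.12). Ddo, which degrades D-aspartate, was at 10.01, 10.7 and 9.62 CPM against 11.9, 14.0 and 14.9 (0.42 ± 0.13). Slc1a4, a serine transporter gene, was at 69.8, 63.8 and 71.7 CPM against 62.9, 59.1 and 56.9 (-0.20 ± 0.07).

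**Figure D4:**
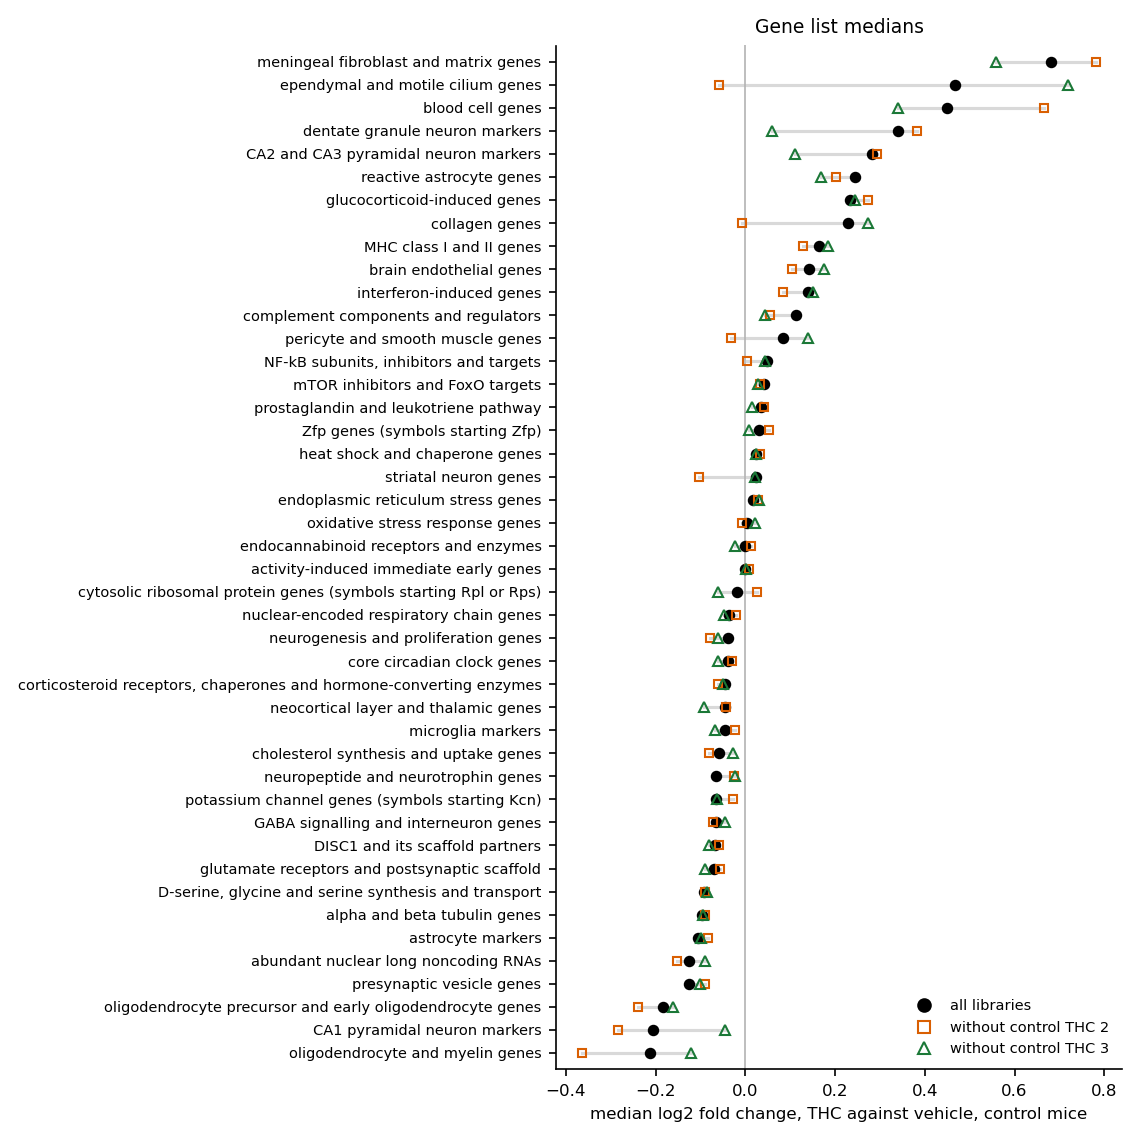
Median log2 fold change by THC in control mice of each of 44 gene lists with all libraries (filled circles), without control THC 2 (squares) and without control THC 3 (triangles). Choroid plexus genes are left out because their median (3.20, or 0.15 without control THC 2) lies beyond the axis. Meningeal genes (0.68) and glucocorticoid-induced genes (0.23) stay above 0 in all 3, and ependymal genes (0.47) do not.

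The largest fold changes rested on single libraries. Of genes at 1 CPM or more whose groups did not overlap, Kcnj13, Abca4, Wdr72, Rbm47 and Wfikkn2 had the largest positive values, 2.14 to 3.65 on the log2 scale. Kcnj13, a potassium channel gene of choroid plexus, was at 1.29, 0.618 and 1.47 CPM in vehicle and 2.51, 37.9 and 2.07 in THC, so control THC 2 decided its value. Wfikkn2 was at 2.53, 1.67 and 1.499 CPM against 4.07, 17.1 and 3.76. Without control THC 2 the 5 values were 0.80 to 1.04. All 20 choroid plexus genes were above 0, and 8 were higher at an unadjusted p under 0.05 with that library and 0 without it. Leaving out any vehicle library also gave 0, control THC 1 gave 17 and control THC 3 gave 13. Their summed level was 452 to 522 CPM in vehicle, 9374 CPM in control THC 2 and 458 and 510 CPM in the other THC libraries.

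At the lower end Gh, the growth hormone gene, had 6, 219 and 155 counts in the vehicle libraries and 5, 2 and 1 in the THC libraries. Control vehicle 1 was thus near the THC libraries, and the fitted log2 fold change, -5.50 ± 1.97, rests on the other 2 vehicle libraries. Npsr1, Cplx3 and Vwc2l were at -1.31 to -1.59, and each was lowest in control THC 3, the library low in CA1 genes. Cplx3 was at 1.71 CPM in control THC 2 and 1.60 CPM in control THC 3, and a link to CA1 genes was not tested. Vwc2l was at 28.2, 19.9 and 27.8 CPM in vehicle and 19.4, 9.85 and 1.23 in THC.

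THC in the mutant mice was set beside these values, and it shares no library with the comparison in control mice. Every mutant library but mutant THC 2 carried choroid plexus RNA. In mutant vehicle 1 to 3 Ttr was at 3638.5, 5240.7 and 9978.7 CPM. In mutant THC 1 to 3 it was at 5968.7, 33.97 and 2856.9 CPM. Ppp1r1b, a striatal gene, was at 668.5 CPM in mutant THC 3 and 27.1 to 130.5 CPM in the other mutant libraries. The part of such RNA in the mutant values was not tested. In the mutants 0 genes passed the edgeR test (0%), and at an unadjusted p under 0.05 there were 906 genes (5.73%), 400 (2.53%) higher and 506 (3.2%) lower. Of the 12 higher genes with the smallest p in control mice, 5 had the same sign in mutants and 0 of those an unadjusted p under 0.05 there. Their median log2 fold change was 0.55 in control and -0.02 in mutant mice. Of the 12 lower genes 9 had the same sign and 3 also that p, with medians of -0.42 and -0.08. The 3 were Tubb4a (-0.19 ± 0.05 in mutants), Mrpl12 (-0.28 ± 0.13) and Bfsp2 (-0.30 ± 0.13). Of all 561 higher genes 41.9% and of all 545 lower genes 59.4% had the same sign in mutants, beside 49.2% of all genes tested.

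Ddit4 was at 49.1, 46.5 and 52.0 CPM in mutant vehicle and 54.0, 51.6 and 57.5 in mutant THC (0.14 ± 0.08). Cp had opposite signs, with -0.44 ± 0.12 in mutants. Tns2 (-0.11 ± 0.13), Vwf (-0.04 ± 0.19) and Klf2 (0.07 ± 0.30) were near 0 there. The glucocorticoid-induced list had a median of -0.01 in mutants and the meningeal list -0.72. Set against control vehicle, the mean log2 level of the glucocorticoid-induced list was 0.26, 0.17 and 0.18 in mutant vehicle 1 to 3. It was 0.25, 0.03 and 0.12 in mutant THC 1 to 3. The meningeal list was at 1.07, 0.44 and 0.61 in mutant vehicle and 0.56, -0.17 and -0.28 in mutant THC. In both lists every mutant vehicle library thus lay above every control vehicle library. The difference of the THC effect between genotypes was tested for every gene and passed in 0 of 15802 by edgeR, with 1041 (6.59%) at an unadjusted p under 0.05. That test uses the control libraries by which these genes were chosen, so its values for them are not given as support.

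**Figure D5:**
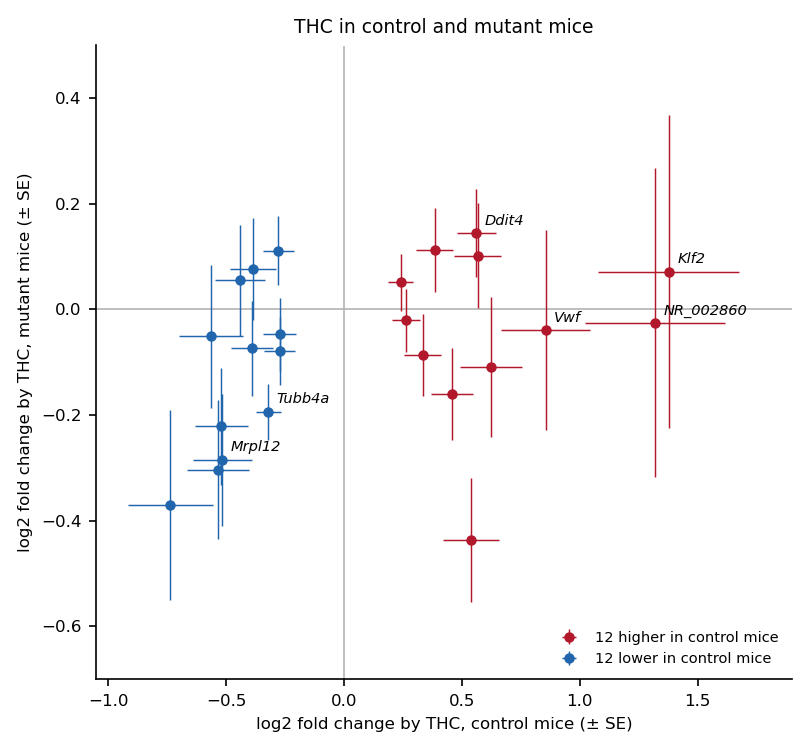
Log2 fold change by THC in control mice (horizontal) and in mutant mice (vertical), each with its standard error, for the 12 higher (red) and 12 lower (blue) genes with the smallest p in control mice. The red points lie around 0 on the vertical axis (median -0.02), and 9 of the 12 blue points lie below it.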

How the data were processed

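Per the labels' protocols, ribosomal RNA was removed from total hippocampal RNA and paired-end libraries were sequenced. The deposited table of the series holds expected counts for each gene, not scaled for depth or length. Tools in the submitters' processing notes are RSEM 1.2.21, Bowtie2 2.2.2, edgeR 3.10.2, FastQC and CASAVA 1.8.4, with the build mm10. RSEM shares ambiguous reads, so members of near-identical gene families are uncertain, as are overlapping antisense genes, since the sources used here do not say whether strand was used. RefSeq's annotation of GRCm38.p6 (the assembly of mm10) gave symbols for 23011 of 23382 rows, and GENCODE for 129. A further 7 rows held several symbols, and the 235 without one held 0.727% of the counts.

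Expected counts were rounded, filtered with filterByExpr over the 4 groups and scaled by TMM (factors 0.989 to 1.012). All 12 libraries were fitted with 1 mean per group, leaving 8 residual degrees of freedom, and tested with edgeR 4.0.16 (R 4.3.3, robust quasi-likelihood). SEs were taken from the F statistic and p-values adjusted over all genes by Benjamini-Hochberg. DESeq2 1.42.0, limma-voom (limma 3.58.1), DESeq2 size factors, no filter, a fit that is not robust, the 6 control libraries alone, log2 CPM of Ttr as a covariate, a fit without mutant THC 3, and leaving out each library were alternatives. The code was tested on simulated data. No library pair was a repeat (lowest chi-square per gene 11.2).

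The comparison, the 45 gene lists and the rules were chosen with earlier results of these data known. Named genes were the 12 higher and 12 lower with the smallest p at 1 CPM or more, the 5 largest log2 fold changes each way among those with groups apart, up to 4 members with the smallest p of each list described, the DESeq2 calls, and Disc1, Srr, Cnr1, Ptgs2, Nfkb1, Rela, Nfkbia and Gfap. Other named genes were chosen after their values were seen. Some genes that these rules choose are not reported here, and counts over lists include them.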

Additional observations from a re-analysis of the deposited data

How the results depend on the processing

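No gene passed the edgeR test of THC in control mice under any scaling, filter, covariate or left-out library tried, and DESeq2 called 12. The genes higher at an unadjusted p under 0.05 numbered 395 to 565 and those lower 265 to 760 when 1 control library was left out, the lowest of these without control THC 3. Fitted alone, the 6 control libraries gave 788 higher and 756 lower, and the fit without mutant THC 3 gave 671 and 681. For THC in mutant mice DESeq2 called 3 genes and the fits without 1 library 0 to 3, and for the difference between genotypes 40 and 0 to 10, the highest in both without mutant THC 1. No paired analysis was possible because the labels' numbers do not recur between groups.

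Of 122 named genes, 9 changed sign under some setting, each in a value that had not passed. With the Ttr covariate Enpp2 was at -0.285, Tsc22d3 at -0.0182 and Zbtb16 at 0.0152. With 1 control library left out the log2 fold changes ran from -0.00137 to 0.245 for Disc1, -0.0322 to 0.0501 for Egr3, -0.243 to 2.62 for Enpp2, -0.160 to 0.0498 for Map3k6, -0.296 to 0.0656 for Nr4a1, -0.0244 to 0.264 for Ptgs2, -0.111 to 0.124 for Tsc22d3 and -0.0316 to 5.61 for Ttr. At 36 to 41 counts per CPM, genes near 1 CPM have wide errors, and 3 libraries a group limit the test.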

Other observations

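Of 371 Zfp genes tested, which encode zinc finger proteins, 13 were higher after THC in control mice at an unadjusted p under 0.05, near the share of 3.55% among all genes, and 2 were lower. In all 229 were above 0, and the median was 0.03, or 0.007 without control THC 3. Beside Zfp568 and Zfp212, Zfp961 was at 13.5, 14.5 and 13.9 CPM in vehicle and 15.6, 15.7 and 17.5 in THC. Zfp36, an RNA-binding protein that destabilises inflammatory transcripts and is not of the same family, was at 1.37, 1.42 and 1.37 CPM against 4.63, 2.04 and 2.02, with control THC 1 highest as in Klf2. The higher Zfp genes numbered 4 to 16 with any 1 control library left out, with 4 without control THC 3, 6 without control vehicle 1, and 8 without control vehicle 2 or control THC 1.

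The remaining lists had medians near that of all genes or moved with 1 library. Interferon-induced genes had a median of 0.14, or 0.02 to 0.19 with any 1 control library left out, with 3 of 31 higher at that p and 1 without control THC 2. Among chaperones, the heat shock list had a median of 0.02 (2 of 22 higher, 1 lower) and the endoplasmic reticulum stress list 0.02 (1 of 24 higher, 2 lower), with Pdia3 at 119, 105 and 127 CPM against 141, 157 and 148. Cholesterol synthesis genes had a median of -0.06 (2 of 28 lower), oxidative stress genes 0.00 (0 of 22 in either direction), circadian clock genes -0.04 (0 of 21) and cytosolic ribosomal protein genes -0.02 (1 of 81 lower, Rps16). GABA and interneuron genes had a median of -0.07 (1 of 30 lower, Pvalb), neuropeptide and neurotrophin genes -0.06 (3 of 24 lower) and potassium channel genes -0.06 (3 of 85 higher, 5 lower). Nuclear long noncoding RNAs had a median of -0.13 (2 of 16 lower) and neocortical genes -0.05 (2 of 19 lower). Pericyte and smooth muscle genes (0.09), collagen genes (0.23), ependymal genes (0.47) and striatal genes (0.02) had medians of -0.03, -0.01, -0.06 and -0.10 without control THC 2. With any 1 control library left out these lists had 0 to 5 higher and 0 to 7 lower genes, with 0 to 6 lower among GABA and interneuron genes, 0 to 5 among neuropeptide genes and 2 to 7 among potassium channel genes. The 2 lower endoplasmic reticulum stress genes became 0 without control THC 2 or control THC 3. The 2 higher heat shock genes became 0 without control THC 2. The 2 lower neocortical genes became 1 without either library, and the 2 lower cholesterol genes 1 without control THC 3.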
